A study of Mus musculus with 2 samples.

Results

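Neuroblasts, the migrating immature neurons of the adult brain, were examined in cell suspensions made from the entire brain of APP-KI mice aged 6 months, in which a knock-in at the App gene models Alzheimer's disease. Of 11312 cells kept, 213 were neuroblasts, 60 in the Fit2-WT library and 153 in the Fit2-Mut library. A barcode was kept with at least 1000 UMIs (unique molecular identifiers, one for each captured RNA molecule), at least 500 genes and at most 10% mitochondrial UMIs. It was taken as a neuroblast when the UMIs of Dcx, Sox11, Dlx1, Dlx2, Dlx6os1 and Igfbpl1 summed to at least 8 and those of Sox11, Igfbpl1, Dlx1 and Dlx2 to at least 3. It also had at most 3 UMIs of Mog, Cldn5 and P2ry12 together, markers of oligodendrocytes, endothelium and microglia, and at most 3 of the astrocyte genes Aqp4 and Gja1. These 11 genes chose the cells, and their levels are no finding.

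Both libraries came from mice carrying the APP knock-in, so the groups differed in Fit2 genotype alone as far as the labels say, intact in Fit2-WT and mutated in Fit2-Mut. Fit2, whose mouse gene symbol is Fitm2, is an endoplasmic reticulum protein of lipid droplet formation, and the series' stated question concerns its disruption in macrophages. The cells in which the mutation acts, the altered part of the gene, the sex of the mice and the number of mice behind each library are not given in the labels. Each group is 1 library, so no difference below has a replicate check, and every interval is a 95% exact interval that takes UMIs or cells as independent and covers counting error only.

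In the adult mouse brain, stem cells of the subventricular zone, beside the lateral ventricle, give rise to rapidly dividing transit-amplifying progenitors marked by Egfr. These produce neuroblasts, which keep dividing for a time while they migrate in chains along the rostral migratory stream to the olfactory bulb, where most become GABAergic interneurons. Transcription factors of the Dlx, Sp and Meis families specify that fate. A second neurogenic zone, the dentate gyrus, makes glutamatergic granule neurons marked by Prox1 and Neurod1.

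The cells fitted the label by markers that the rule had not used. Neuroblasts held a median of 7106 UMIs in Fit2-WT (range 1098 to 38529) and 7272 in Fit2-Mut (2144 to 43797), close to the medians of 6911 and 7532 of all other kept cells. Their mitochondrial share had a median of 1.57% and 1.72%, against 2.41% and 2.72% in the other cells. To compare detection at equal depth, each cell was thinned to 2000 UMIs, which 2 Fit2-WT neuroblasts were too shallow for. At that depth Stmn2, which encodes a microtubule-destabilising protein of growth cones, was detected in 84.5% of the neuroblasts of Fit2-WT and 82.4% of those of Fit2-Mut, against 1.10% and 1.47% of astrocytes. Tubb3, the neuronal beta-tubulin, was detected in 82.8% and 86.3% of neuroblasts and in 0.823% and 0.983% of astrocytes. Unthinned, Stmn2 had a UMI in 88.3% and 89.5% of neuroblasts and Tubb3 in 93.3% and 97.4%. Astrocytes stand here for cells that should lack neuronal RNA. The source of their small shares, such as free RNA in the droplets or RNA of a second cell, was not tested.

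The limits of the rule touched few cells. The 6-gene sum had a median of 37.5 in Fit2-WT neuroblasts and of 45 in Fit2-Mut ones and reached 133 and 132. Just inside the limit, with 8 or 9 UMIs, lay 3 Fit2-WT and 2 Fit2-Mut cells, and just outside, with 6 or 7 UMIs and all else met, lay 1 and 3 cells. A further 1 and 9 barcodes met the neuroblast sums and failed only the limits on genes of other types, and 2 and 0 failed only the 4-gene sum. No barcode sequence of a neuroblast was shared between the libraries, while 10 were shared among all kept cells.

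Some neuroblast barcodes also held RNA of another cell type. In 2 Fit2-WT and 9 Fit2-Mut neuroblasts, at least 1% of UMIs came from the marker list of another type, a limit chosen after the data were seen. These mixed barcodes carried choroid plexus genes in both Fit2-WT cases and in 6 of the Fit2-Mut cases, haemoglobin genes in 2 and microglial genes in 1. Scrublet, a doublet caller, called no Fit2-WT neuroblast and 7 Fit2-Mut neuroblasts, of which 4 were mixed. Neuroblasts marked by it were not removed, and ratios between the libraries that moved by over 1.5 times without the mixed barcodes are given both ways. Over all neuroblasts the summed level of the 10 microglial markers was 54.9 CPM (UMIs of a gene scaled to a fixed total of all UMIs in the summed cells) in Fit2-WT and 226 CPM in Fit2-Mut, and it was 57.4 and 42.7 CPM without mixed barcodes. Haemoglobin genes summed to 17.7 and 17205 CPM with them and to 17.8 and 24.8 CPM without. Choroid plexus markers summed to 25581 and 14563 CPM with them and to 588 and 526 CPM without.

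Neuroblasts took a larger share of cells in the Fit2-Mut library. They were 1.13% of kept cells in Fit2-WT (0.860 to 1.45%) and 2.56% in Fit2-Mut (2.17 to 2.99%), a ratio of 2.27 (1.68 to 3.12). Without mixed barcodes the shares were 1.09% and 2.41% and the ratio was 2.21 (1.62 to 3.06). In the same libraries astrocytes were 13.8% and 17.2% of cells, a ratio of 1.25 (1.13 to 1.37). Ependymal barcodes, from the lining of the ventricles beside which neuroblasts arise, had a ratio of 0.959 (0.835 to 1.10) and choroid plexus barcodes one of 0.954 (0.879 to 1.03). Oligodendrocyte precursors numbered only 7 and 6 cells, and gene levels were not compared with them. With 1 library per group, library and genotype cannot be told apart.

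**Figure D1:**
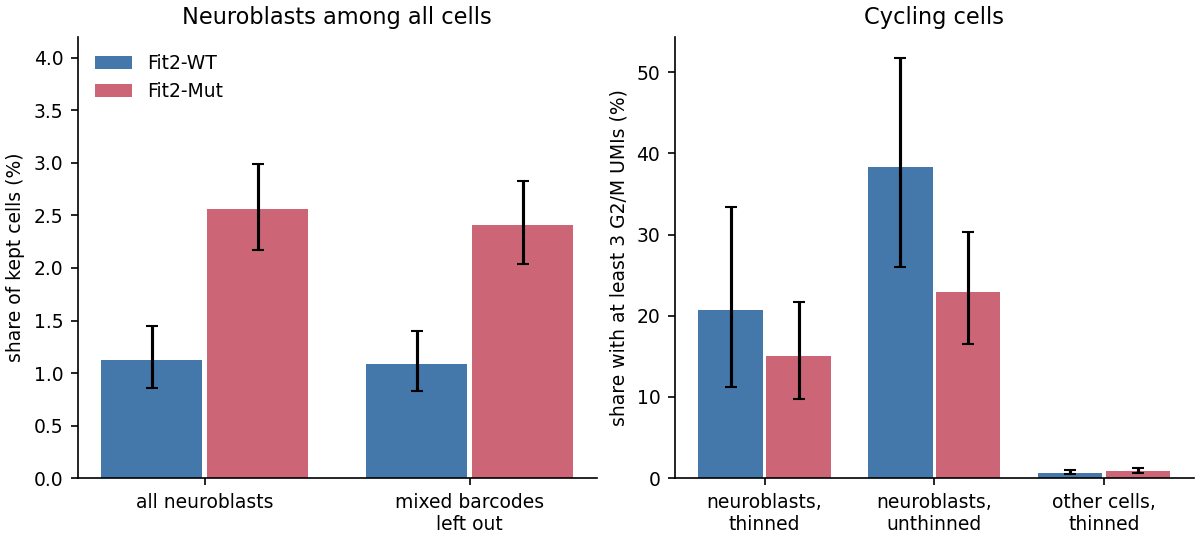
Left, neuroblasts as a share of kept cells (percent) in the Fit2-WT and Fit2-Mut libraries, with and without mixed barcodes. Right, share of cells (percent) with at least 3 UMIs of the G2 and M list, for neuroblasts thinned and unthinned and for other cells thinned. Error bars are 95% Clopper-Pearson intervals. The neuroblast share is 1.13% in Fit2-WT and 2.56% in Fit2-Mut, and the 2 intervals do not overlap.

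Levels of neuroblasts were set against all other kept cells of the same library, as a description, since the cells were chosen on RNA from these counts. A gene was compared with a mean level of at least 20 CPM in neuroblasts or in other cells, and was counted when it was at least 2-fold higher, or lower, in both libraries. Of 8785 genes compared, 20.2% were higher and 22.6% were lower by this count. Read against those shares, the fate factors, growth cone genes, guidance genes and cell-cycle genes were higher for most of their members, and genes of glycolysis, antigen presentation and glial identity were lower. The glial lists include genes that the rule had limited.

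Among the interneuron fate factors, 18 of 19 compared genes were higher and none lower. Dlx5, a homeobox factor of the GABAergic lineage, stood at 198 CPM in Fit2-WT and 174 CPM in Fit2-Mut neuroblasts, against 0.0671 and 0.242 CPM in the other cells. Over single cells its level ran from 0 through a median of 210.5 to 911 CPM in Fit2-WT and from 0 through 163.9 to 1548 CPM in Fit2-Mut. Every library had cells without a UMI of it, and the ranges of the libraries overlapped. Sp9, a zinc-finger factor needed for several interneuron classes, stood at 349 and 402 CPM against 0.604 and 1.57 CPM, and its relative Sp8 at 143 and 139 CPM against 0.470 and 0.391 CPM. Thinned, Sp9 was detected in 58.6% and 56.2% of neuroblasts and in 0.137% and 0.295% of astrocytes. Dlx5 was detected in 37.9% and 24.8% of neuroblasts and in 0 of 729 and 0 of 1017 astrocytes. Meis2, a homeobox cofactor, was in 87.9% and 90.8% of neuroblasts, but also in 33.9% and 31.2% of astrocytes, and its level was 35.4-fold and 34.5-fold that of other cells.

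GABA genes were present in most neuroblasts. Of the 9 compared, 5 were higher than in other cells and 1 was lower. Gad1 and Gad2, the enzymes that make GABA, stood at 211 and 448 CPM in Fit2-WT and at 266 and 366 CPM in the Fit2-Mut library. In other cells Gad1 was at 1.28 and 1.57 CPM and Gad2 at 0.828 and 1.51 CPM. Slc32a1, which loads GABA into vesicles, was 326-fold and 158-fold above other cells. The member that was lower was Slc12a2, the chloride importer NKCC1.

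The machinery of a moving cell was prominent. Of 23 growth cone and microtubule genes, 21 were higher and none lower, among them tubulins (Tuba1a, Tubb2b, Tubb3), stathmins, Map1b, Gap43 and the collapsin response mediators Dpysl3, Dpysl5 and Crmp1. Stmn2 reached 1681 and 1476 CPM against 9.51 and 11.2 CPM in other cells. Of 28 migration and guidance genes, 18 were higher and 2 lower. The higher ones included both polysialyltransferases St8sia2 and St8sia4, which build the sugar coat that lets chains of neuroblasts slide, the Slit receptor Robo2 and its ligand Slit1, the neuregulin receptor Erbb4, and Prokr2, the prokineticin receptor used in olfactory bulb migration. Robo2 was 30.8-fold and 43.7-fold above other cells and Erbb4 6.33-fold and 7.60-fold. The 2 lower members were the laminin receptor subunit Itga6 and the semaphorin coreceptor Nrp1. Cd24a, a surface protein often used to sort neuroblasts, was 21.5-fold and 16.9-fold above other cells and had a UMI in 50% and 50.3% of thinned neuroblasts.

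By a fixed rule of size, the genes farthest above other cells outside the rule genes included Dlx5, Sp8, Gm14204, Sp9, Gad2, Myt1, Gm38505, Islr2, Dlx1as, Gad1, Rnf165, Srrm4, Stmn2, Dpysl3, Ttc9b, Mex3a, Cdca7, Elavl2 and Crmp1. The list mixes fate factors with neuronal RNA processing genes, the splicing factor Srrm4 and the RNA-binding protein Elavl2. Dlx1as lies on the minus strand of chromosome 2 from 71516454 to 71537891 (mm10) and spans Dlx1, which lies on the plus strand from 71528113 to 71533981. Dlx6os1, a rule gene on the minus strand of chromosome 6 from 6820189 to 6871592, likewise spans Dlx6 at 6863334 to 6868568. Whether counting used the strand is not given in the sources used here, so UMIs of Dlx1as and Dlx6 may partly be those of their overlapping partners.

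Genes of stem cells and glia stood lower. Of 14 stem cell and radial glia genes compared, 7 were lower than in other cells (Slc1a3, Hes5, Hes1, Hopx, Id3, Aldoc, Ednrb) and 1, the progenitor factor Sox2, was higher. All compared markers of microglia (10), astrocytes (9), oligodendrocytes (10), endothelium (9), choroid plexus (9), ependyma (10) and T cells (3) were lower. On these lists, the rule itself had limited P2ry12 (microglia), Aqp4 and Gja1 (astrocytes), Mog (oligodendrocytes) and Cldn5 (endothelium). The counts for those types thus partly follow from the choice of cells. In glycolysis 12 of 18 genes were lower and 1 was higher, the neuronal glucose transporter Slc2a3. Fatty acid carriers and oxidation had 10 lower and 1 higher of 17, the higher one being Fabp5. MHC class I presentation had 9 lower of 11, and the interferon response 7 lower of 9, with no member of either higher. Cholesterol synthesis was level by comparison, with 1 gene higher and 1 lower of 15.

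**Figure D2:**
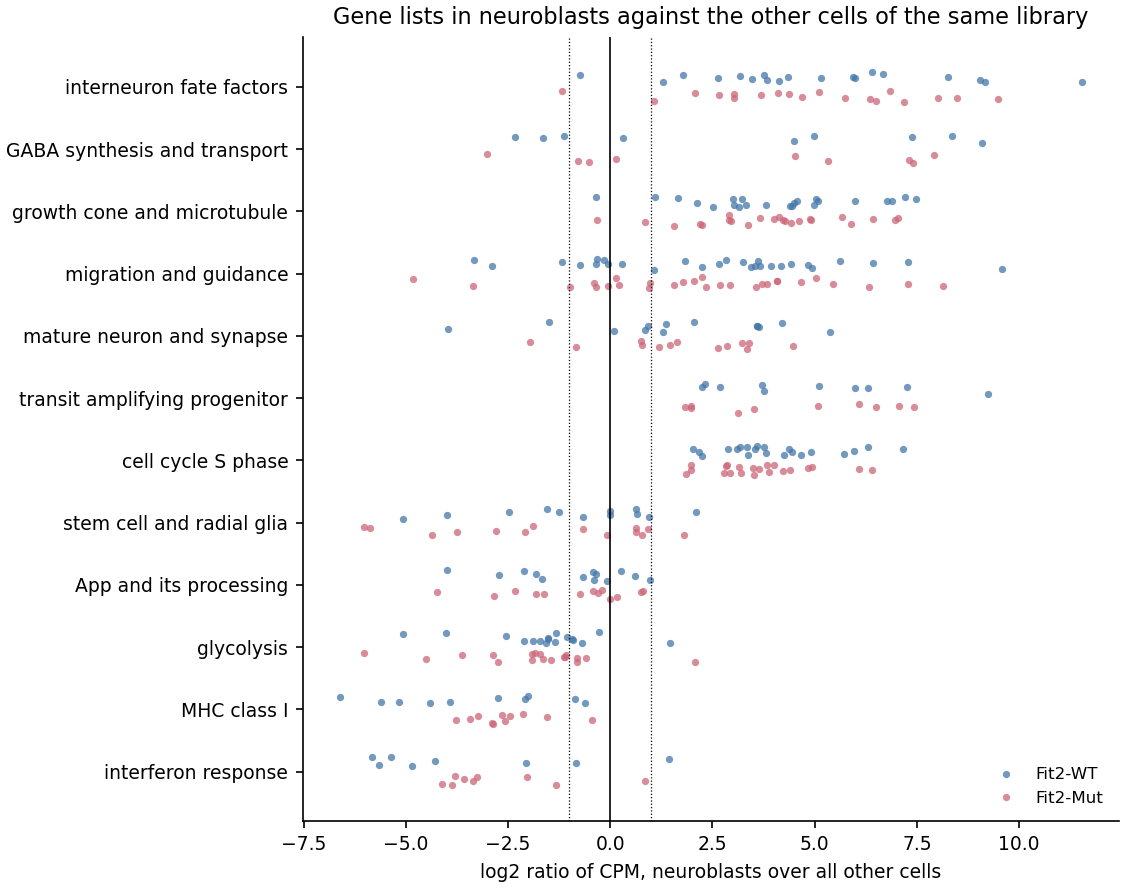
Level in neuroblasts over all other kept cells of the same library (log2 axis) for the members of each gene list, Fit2-WT and Fit2-Mut shown side by side, 1 point per gene. Rule genes and ratios with 0 UMIs in neuroblasts are not drawn, denominators under 3 UMIs were set to 3, and dotted lines mark 2-fold. Fate factors, growth cone and S-phase genes lie mostly above the upper line, and glycolysis, MHC class I and interferon genes mostly below the lower one.

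Against astrocytes, the glial cells nearest to them in lineage, 20% of 8964 compared genes were higher and 24.1% lower. Dlx5 was at least 351-fold higher in Fit2-WT, where astrocytes had fewer than 3 UMIs, and 235-fold higher in Fit2-Mut. Erbb4, by contrast, was 2.07-fold and 3.07-fold higher. Sox2, which both cell types use, differed little, at 0.846-fold and 0.824-fold. App, the precursor of amyloid beta, was 2.18-fold and 2.25-fold higher in neuroblasts than in astrocytes, although it was lower than in all other cells together.

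A part of the neuroblasts held RNA of the cell-division genes. All 21 compared S-phase genes and all 26 G2 and M phase genes were higher than in other cells. A neuroblast was counted as cycling with at least 3 UMIs of the 26-gene G2 and M list. After thinning, 12 of 58 Fit2-WT neuroblasts (20.7%, 11.2 to 33.4%) and 23 of 153 Fit2-Mut neuroblasts (15.03%, 9.77 to 21.7%) were cycling, against 0.693% and 0.931% of other cells. The ratio of Fit2-Mut to Fit2-WT was 0.727 (0.347 to 1.602), an interval that includes 1, so a difference in either direction was not detectable with these cells. Unthinned, the shares were 38.3% and 22.9% (ratio 0.597, 0.343 to 1.06). By S-phase genes, 34.5% and 22.9% of thinned neuroblasts had at least 3 UMIs (ratio 0.663, 0.373 to 1.21). Near the limit, 4 and 7 thinned neuroblasts had 2 or 3 UMIs of the G2 and M list, beside the 12 and 23 counted as cycling. The shares thus depend on the limit and on depth.

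Cycling neuroblasts held more RNA of progenitor genes and less of migration and differentiation genes than non-cycling ones. The split used unthinned counts, with 23 cycling and 37 non-cycling cells in the Fit2-WT library and 35 and 118 in the Fit2-Mut library. Cell-cycle genes made the split and are no finding in it. Cycling cells were also deeper, with median counts of 14345 and 16581 UMIs against 5591 and 6396 in non-cycling cells, and the part of depth in the levels below was not tested. Among 4402 genes with a mean of at least 50 CPM on one side, 10.2% were at least 2-fold higher in cycling cells of both libraries and 5.72% were at least 2-fold lower.

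Transit-amplifying genes were higher in cycling cells for 9 of 10 members. Egfr, the growth factor receptor that drives their division, stood at 380 CPM in cycling and 82.6 CPM in non-cycling Fit2-WT cells, a 4.60-fold difference, and at 422 and 59.7 CPM in Fit2-Mut, 7.07-fold. Most neuroblasts held no Egfr RNA. The 5 highest neuroblasts carried 74.8% (Fit2-WT) and 56.9% (Fit2-Mut) of the Egfr UMIs. Whether transit-amplifying progenitors that met the neuroblast rule account for the Egfr levels was not tested. Cdk6, a G1 kinase, was 2.59-fold and 7.098-fold higher. The member that was not 2-fold higher in both was Ccnd2, cyclin D2, at 2.001-fold and 1.61-fold. Cdk6, Ccnd2 and E2f1, which is also on the list, are cell-cycle genes. The count of 9 of 10 is therefore not separate from the split. Of 7 stem cell and radial glia genes, 4 were higher: the glutamate transporter Slc1a3 (2.81-fold and 3.03-fold), the radial glial lipid carrier Fabp7 (5.93-fold and 28.8-fold), the filament gene Vim (2.004-fold and 3.20-fold) and the receptor Notch1 (3.51-fold and 2.43-fold).

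Genes of migration and differentiation were lower in the same cells. Of 22 migration and guidance genes 8 were lower and none higher. Erbb4 stood at 583 CPM in cycling and 3340 CPM in non-cycling Fit2-WT cells, and at 550 and 4168 CPM in Fit2-Mut. Robo2 was 0.308-fold and 0.174-fold the non-cycling level, and Plxna4, a semaphorin receptor, 0.179-fold and 0.0466-fold. Growth cone genes were lower for 8 of 23 (Tubb3, Tubb2a, Tubb2b, Stmn4, Map1b, Dpysl5, Basp1, Nrep), and mature neuron genes for 6 of 11, among them Meg3, a neuronal long noncoding RNA, at 0.0615-fold and 0.0241-fold. Of 6 GABA genes 3 were lower, Gad1 at 0.252-fold and 0.260-fold.

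Fate factors did not all move alike between cycling and non-cycling cells. Of 18 compared, 1 was higher in cycling cells and 3 were lower, Meis2 (0.449-fold and 0.290-fold), Pbx3 (0.123-fold and 0.103-fold) and Foxp2 (0.304-fold and 0.124-fold). Dlx5 stood at 0.660-fold and 0.673-fold. The median over these factors was 0.661-fold in Fit2-WT and 0.500-fold in Fit2-Mut, where the median of all 4402 genes was 1.10 and 1.07.

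**Figure D3:**
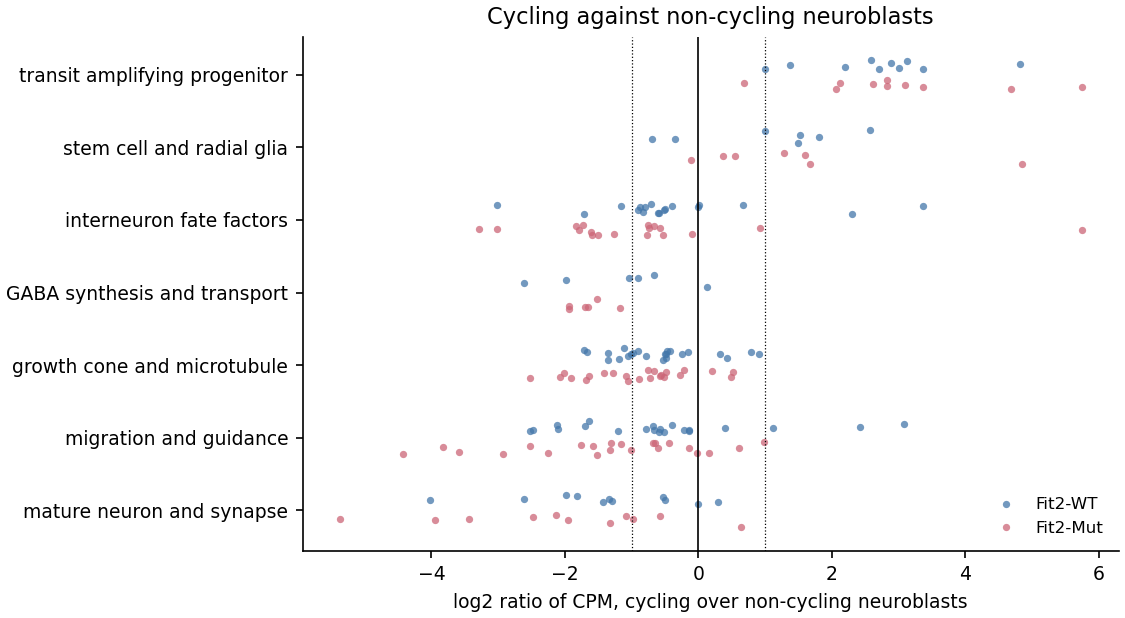
Level in cycling over non-cycling neuroblasts of the same library (log2 axis) for the members of each gene list, 1 point per gene, Fit2-WT and Fit2-Mut shown side by side. Rule genes and ratios with 0 UMIs in cycling cells are not drawn, denominators under 3 UMIs were set to 3, and dotted lines mark 2-fold. Transit-amplifying genes lie mostly above the upper line, and migration and mature neuron genes mostly below level.

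Non-cycling neuroblasts also varied among themselves. In the 35 Fit2-WT and 118 Fit2-Mut non-cycling cells with enough UMIs to thin, Spearman correlations were taken over cells for 1711 pairs of 59 list genes. Cells of 1 library share its depth and preparation, and the values are descriptions. Some barcodes held little growth cone RNA beside much guidance RNA. In 1 Fit2-Mut cell these lists had 54 and 259 UMIs, and the glycolysis list had 0. Whether the pairs below follow how much of a cell's cytoplasmic RNA was captured was not tested. The coefficient was at least 0.3 in both libraries for 39 pairs and at most -0.3 in both for 4. The tubulins led the positive pairs, with Tuba1a and Tubb5 at 0.75 and 0.62 and Tubb3 and Tuba1a at 0.70 and 0.61. Other pairs were formed among fate factors, guidance genes and Meg3: Meis2 and Robo2 at 0.50 and 0.50, Pbx3 and Meg3 at 0.55 and 0.49, and Robo2 and Erbb4 at 0.41 and 0.40. The pairs below -0.3 set Meg3 or Pbx3 against a tubulin or Ccnd2, as Meg3 against Tubb5 (-0.42 and -0.44), Meg3 against Ccnd2 (-0.34 and -0.55) and Pbx3 against Tubb3 (-0.33 and -0.33). Meg3 thus tended to be high in cells low in tubulin and cyclin D2 RNA, and Pbx3 in cells low in Tubb3, in each library.

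Fit2-Mut neuroblasts were then compared with Fit2-WT neuroblasts, on 1483731 against 564682 summed UMIs. A gene was compared when both libraries together gave at least 50 UMIs, and was counted when its CPM differed at least 1.5-fold. Of 6334 genes, 7.5% were higher and 4.75% lower in Fit2-Mut, 12.3% in all. Many of these genes had few UMIs, and of 653 genes with at least 500 UMIs only 3.06% differed 1.5-fold in either direction. The median log2 ratio over all genes compared was -0.01.

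Most genes of neuroblast identity stayed within 1.5-fold. No growth cone gene of 23 and no GABA gene of 8 differed 1.5-fold, with median log2 ratios of -0.02 and 0.22. Interneuron fate factors had 2 of 19 higher and none lower (median 0.05), migration and guidance genes 3 of 24 higher and 1 lower (0.13), and mature neuron genes 3 of 12 higher and 1 lower (0.03). Transit-amplifying genes had 2 of 10 lower, Dll3 and E2f1 (median -0.20), and stem cell genes 1 of 9 higher, Fabp7 (-0.03). Ribosomal protein genes had 0 of 80 and mitochondrially encoded genes 0 of 11 past the fold.

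The 2 fate factors past the fold were Pbx3 and Foxp2, both lower in cycling cells. Pbx3, a homeobox cofactor of Meis proteins, stood at 636 CPM in Fit2-WT and 1059 CPM in Fit2-Mut, a ratio of 1.67 (1.49 to 1.87). Its level per cell ran from 0 through a median of 235.5 to 12750.5 CPM in Fit2-WT and from 0 through 368 to 15664 CPM in Fit2-Mut, so the libraries overlapped almost fully. In non-cycling cells the ratio was 1.37 (1.21 to 1.56), below the fold. With cells weighted equally it was 1.21 over all neuroblasts and 1.01 over the non-cycling ones. Foxp2, a forkhead factor, had a ratio of 1.53 (1.22 to 1.93), with the median cell at 0 in both libraries. It was below the fold in non-cycling cells, at 1.48 (1.14 to 1.94), and without mixed barcodes, at 1.45. Erbb4 stood at 1824 and 2672 CPM, a ratio of 1.47 (1.37 to 1.57), and 1.25 in non-cycling cells. The share of cycling cells was lower in Fit2-Mut by point estimate, with an interval that includes 1. The ratios in non-cycling cells leave out cells counted as cycling on unthinned counts, a split that also follows depth. Any part of the cycling share in the ratios over all neuroblasts was not tested.

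Cell-cycle lists went in different directions. G2 and M genes had 11 of 26 higher in Fit2-Mut and none lower, with a median log2 ratio of 0.53, whereas S-phase genes had 3 of 20 lower (Dut, Uhrf1, Clspn) and none higher, with a median of -0.20. The mitotic ubiquitin ligase gene Ube2c was at 1.99 (1.58 to 2.53) and the mitotic cyclin Ccnb1 at 2.21 (1.38 to 3.70), while Top2a was at 1.03 and Mki67 at 1.001. The G2 and M level rested on few cells. The 5 highest cells held 230, 218, 188, 146 and 146 UMIs of the list in the Fit2-WT library and 813, 744, 555, 385 and 341 in Fit2-Mut, which was 60.6% and 54.2% of the list's UMIs. The summed list stood at 2713 and 3526 CPM, and without those cells at 1238 and 1779 CPM. The mean of each cell's own CPM was 2099 in Fit2-WT and 1785 in Fit2-Mut, the opposite order, and with cells weighted equally the median log2 ratio was -0.07. Cells cycling by unthinned counts held a median of 21 UMIs of the list in Fit2-WT and of 83 in Fit2-Mut. The 12 and 23 cells cycling after thinning did not differ in this way, with medians of 136.5 and 136 unthinned UMIs and of 17.5 and 18 thinned ones.

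**Figure D4:**
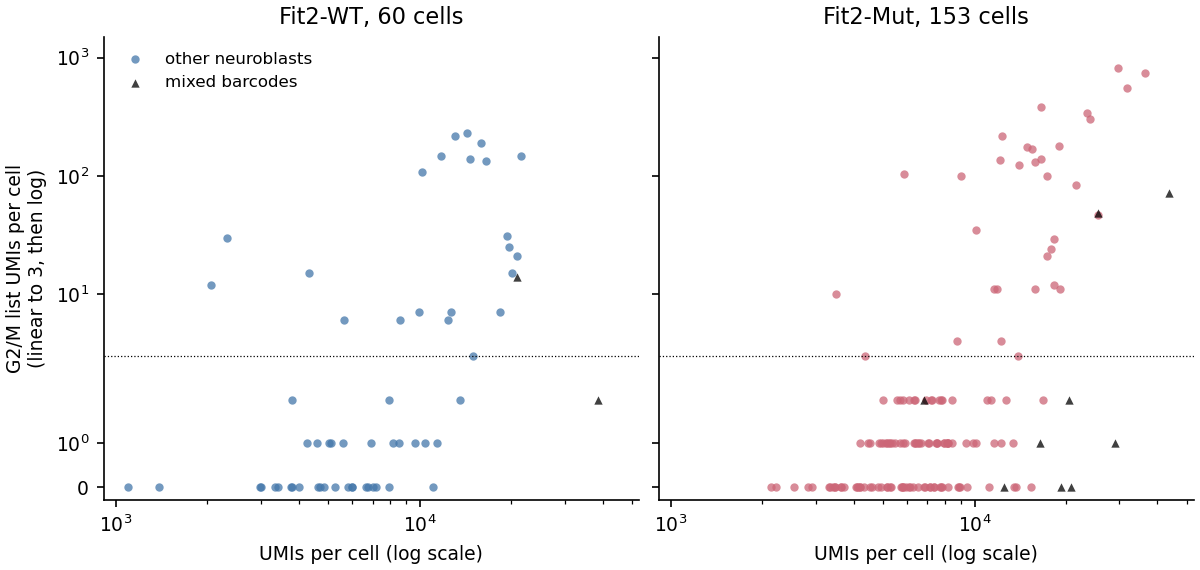
UMIs of the 26-gene G2 and M list (unthinned, axis linear to 3 and then log) against all UMIs of each neuroblast (log axis). Each library has its own panel, and black triangles are mixed barcodes. The dotted line marks 3 UMIs. The 5 highest Fit2-Mut cells hold 341 to 813 UMIs and the 5 highest Fit2-WT cells 146 to 230.

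Genes ranked highest in Fit2-Mut by the interval bound nearest to 1 included B2m, Unc5c, Epha6, H2-D1, Ctsd, Cntnap4 and Micu3. They comprised genes with a UMI in a minority of neuroblasts (Unc5c, Epha6, Cntnap4, Micu3), and immune or lysosomal genes (B2m, H2-D1, Ctsd) with most of their Fit2-Mut UMIs in mixed barcodes. The netrin receptor Unc5c was at 6.95 (2.60 to 26.2), on 4 Fit2-WT and 73 Fit2-Mut UMIs, the ephrin receptor Epha6 at 4.57 and the adhesion gene Cntnap4 at 3.54. In Fit2-Mut the 5 highest cells held 61.6% of the Unc5c, 60% of the Epha6 and 39.8% of the Cntnap4 UMIs.

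For antigen presentation and lysosomal genes, most of the Fit2-Mut UMIs lay in mixed barcodes. The MHC class I list had 3 of 5 genes higher and a median log2 ratio of 1.99, which was 0.21 without mixed barcodes. H2-D1, a class I heavy chain, was at 3.98, with 92 of 115 Fit2-Mut UMIs in mixed barcodes, and at 0.901 without them. The lysosomal protease gene Ctsd was at 2.55, with 356 of 442 UMIs in mixed barcodes, and at 0.963 without them. B2m, the class I light chain, had 52 of 70 Fit2-Mut UMIs in mixed barcodes and outside them had 1 Fit2-WT and 18 Fit2-Mut UMIs. Its ratio was 8.88 (2.92 to 44.1) with mixed barcodes and 7.05 (1.11 to 293.9) without. A single mixed barcode held 281 of the Ctsd and 57 of the H2-D1 UMIs of Fit2-Mut, along with 564 UMIs of Cd74 and 179 of H2-Aa, genes of MHC class II presentation.

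Genes ranked lowest in Fit2-Mut were Dcc, Mfge8, Rlbp1, Rasgef1b, Efhd2, Ttr, Acaa2, Mxra7, Cdkn1c and Hist1h2ab. Dcc, the netrin receptor that steers axons and migrating cells, was at 588 CPM in Fit2-WT and 227 CPM in Fit2-Mut, a ratio of 0.386 (0.331 to 0.451). A single Fit2-WT cell held 152 of its 332 UMIs, and the highest Fit2-Mut cell held 47 of 337. Without the 5 highest cells of each library the levels were 102 and 153 CPM, a ratio of 1.502 (1.10 to 2.09) in the other direction, and in non-cycling cells the ratio was 0.936. The direction for Dcc thus turned when a few cells were left out. Mfge8, a bridging protein for cell clearance made by astrocytes, was at 0.326, and Rlbp1, a retinoid carrier, at 0.281. Rlbp1 stood at 74.4 CPM in Fit2-WT and 20.9 CPM in Fit2-Mut neuroblasts, against 29.0 and 27.2 CPM in astrocytes. For Mfge8 the levels were 149 and 48.5 CPM against 748 and 643 CPM. In non-cycling cells the ratio was 0.0889 (0.0322 to 0.214) for Mfge8 and 0.292 (0.143 to 0.595) for Rlbp1. In Fit2-WT the 5 highest cells held 84.5% of the Mfge8 and 61.9% of the Rlbp1 UMIs, against 45.8% and 35.5% in Fit2-Mut. Ttr, the main choroid plexus transcript, was at 0.562 with mixed barcodes and 0.868 without. Acaa2, an enzyme of fatty acid oxidation, was at 0.372 with them, on 45 and 44 UMIs, and at 0.719 without, on 6 and 11 UMIs.

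**Figure D5:**
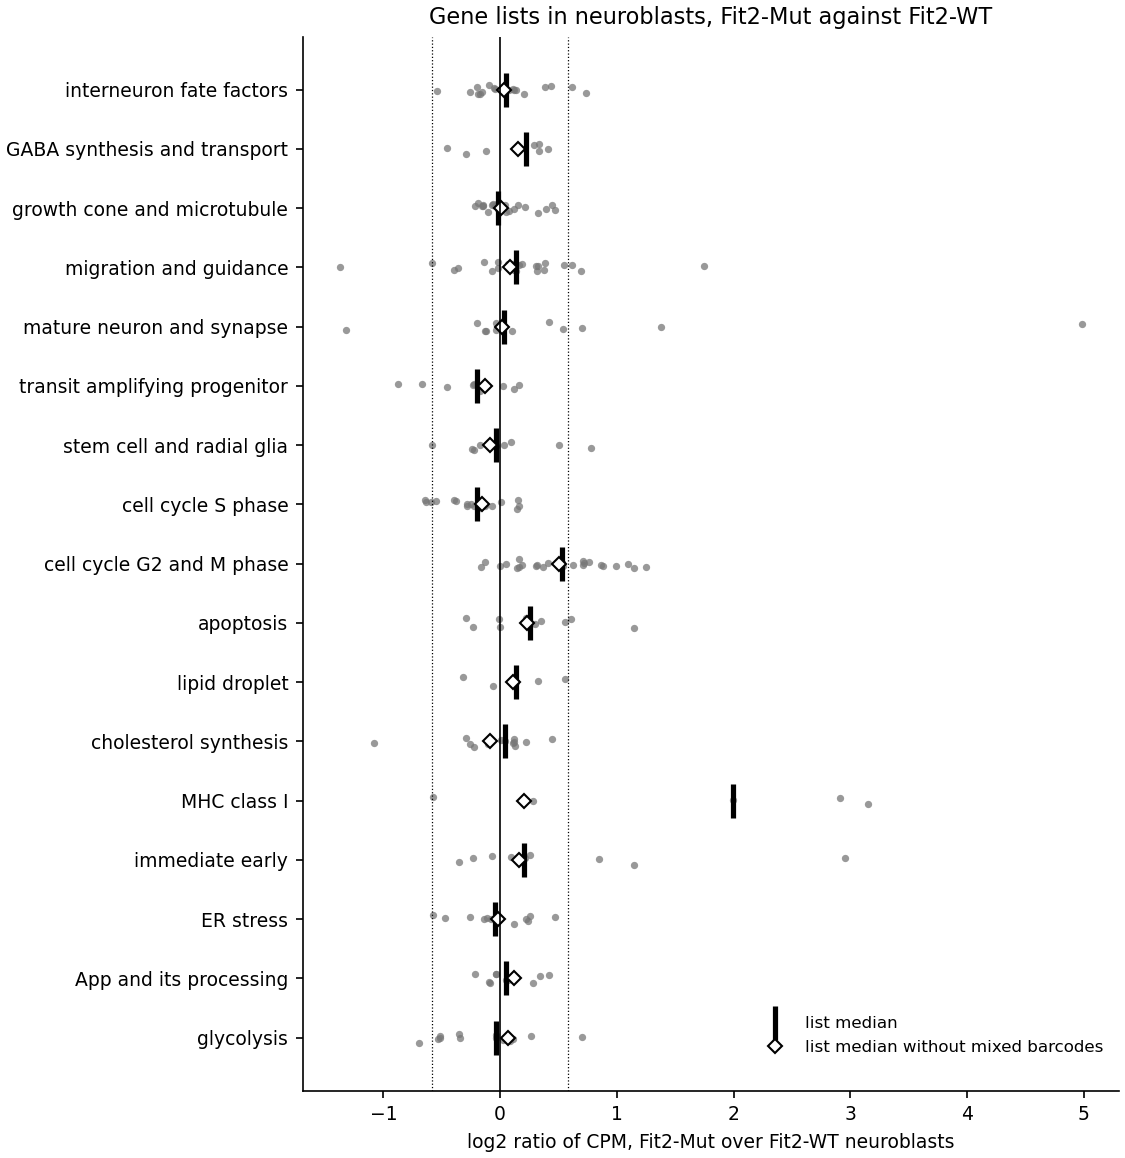
Level in Fit2-Mut over Fit2-WT neuroblasts (log2 axis) for the members of each gene list, 1 point per gene with a summed count of at least 50 UMIs. Bars are list medians, diamonds are medians without mixed barcodes, a library at 0 UMIs was set to 3 (Zfp36), and dotted lines mark 1.5-fold. Points of the identity lists lie mostly between the lines, and those of the G2 and M list lie mostly above level.

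Among mature neuron genes, the synaptic genes Syt1 and Snap91 were at 1.63 (1.10 to 2.48) and 2.60 (1.41 to 5.24), and Syn2 was at 0.400 (0.253 to 0.632). Snhg11, the other gene past the fold, had 79 of its 83 Fit2-Mut UMIs in 1 cell. A Fit2-Mut neuroblast with a 6-gene sum of only 9 held 213 of the 3567 Fit2-Mut UMIs of the mature neuron list. Its part in the ratios of Syt1 and Snap91 was not tested. Of the immediate early genes, which dissociation induces in many brain cells, 3 of 10 were higher (median log2 ratio 0.20). Fos was at 122 and 220 CPM, a ratio of 1.80 (1.39 to 2.37) and of 1.59 without mixed barcodes, and Junb at 2.22 with them and 1.35 without. The third, Zfp36, had 0 Fit2-WT UMIs and 61 in Fit2-Mut, 54 of them in mixed barcodes. Of 10 apoptosis genes 2 were higher (median 0.26), Xiap, a caspase inhibitor, at 2.22 (1.32 to 3.96) and Apaf1, a caspase activator, at 1.52 (0.774 to 3.27).

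Lipid genes, the pathway in which Fit2 acts, are set beside the 12.3% of all 6334 genes that passed the fold either way. Lists of 5 to 13 compared genes are too short for their counts to be told apart from that share. None of 5 lipid droplet genes passed the fold (median log2 ratio 0.13), cholesterol synthesis had 1 of 13 lower, Insig1 (0.04), and fatty acid carriers and oxidation 2 of 9 higher, Fabp7 and Acadl (-0.13). Plin2, the main lipid droplet coat protein in most tissues, stood at 30.1 CPM in Fit2-WT and 37.7 CPM in Fit2-Mut, a ratio of 1.25 (0.718 to 2.30). Fitm2 itself, on chromosome 2 from 163466379 to 163472629 (mm10, minus strand), had 0 UMIs in Fit2-WT neuroblasts, which allows up to 6.53 CPM, and 5 UMIs in Fit2-Mut, 3.37 CPM. In all other cells it stood at 7.25 and 7.01 CPM. Neither value checks the genotype labels, as the altered part of the gene and the cells in which it is altered are not given.

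Genes of App processing stayed within 1.5-fold. None of 11 passed it (median 0.05), and App stood at 195 and 214 CPM, a ratio of 1.10 (0.880 to 1.38). That was 0.286-fold the level of other cells in each library. Apoe, made mainly by glia, was at 409 and 352 CPM in neuroblasts against 6557 and 6654 CPM in other cells. Few cells carried most of the neuroblast level, as the 5 highest held 79.2% (Fit2-WT) and 65.2% (Fit2-Mut) of it. The highest cell of each library, with 141 and 178 Apoe UMIs, was a mixed barcode with choroid plexus RNA. The median neuroblast stood at 48.1 CPM (Fit2-WT) and 78.6 CPM (Fit2-Mut).

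Of the GABAergic genes that the rule did not use, at least 1 UMI of Dlx5, Dlx6, Gad1 or Gad2 was present in 55 of the 60 Fit2-WT neuroblasts (91.7%, 81.6 to 97.2%) and in 146 of the 153 Fit2-Mut ones (95.4%, 90.8 to 98.1%). A glutamatergic cell was defined by at least 2 UMIs of Neurod1, Neurod2, Neurod6, Prox1, Eomes, Tbr1, Bhlhe22 and Slc17a7 together and no UMI of the GABAergic genes Dlx1, Dlx2, Dlx5, Dlx6, Dlx6os1, Gad1 and Gad2. In Fit2-WT 1 of 60 neuroblasts met it (1.67%, 0.0422 to 8.94%) and in Fit2-Mut 0 of 153, which by a floor of 3 counts allows a share of up to 1.96%. Dlx1, Dlx2 and Dlx6os1 also chose the neuroblasts, and a cell without them could enter only through Dcx, Sox11 and Igfbpl1, so these shares hold for the cells chosen and partly follow from the choice. The Fit2-WT cell held 18 UMIs of the glutamatergic list, among them 6 of Prox1, 5 of Neurod1 and 4 of Bhlhe22, together with 9 of Sox11, 9 of Igfbpl1 and 2 of Dcx. All 5 Neurod1 UMIs of the Fit2-WT neuroblasts were in it. Prox1 was not particular to it, as it gave 52 of 65 list UMIs in Fit2-WT neuroblasts and 171 of 174 in those of Fit2-Mut.

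Markers of the finished olfactory bulb interneuron classes were sparse. Th, the enzyme of dopamine synthesis, and Calb1, a calcium-binding protein, mark separate classes of the glomerular layer, and Calb2 marks a further one. Th and Calb1 each had 0 UMIs in Fit2-WT neuroblasts and 1 in Fit2-Mut, and Calb2 had 3 and 6. Synpr, a synaptic vesicle protein abundant in granule cells of the olfactory bulb, was the exception, with 140 and 295 UMIs in the respective libraries, in 56.7% and 48.4% of neuroblasts. It stood at 248 and 199 CPM, 23.1-fold and 12.6-fold the other cells, with a Fit2-Mut to Fit2-WT ratio of 0.802 (0.654 to 0.988).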

How the data were processed

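Dissociated whole-brain cells of 1 Fit2-WT and 1 Fit2-Mut library were measured with droplet 3' chemistry (10x Genomics v3.1), per the labels' protocols. The deposited values are raw UMI counts, 1 for each barcode and gene, which the authors left unnormalised. Cell Ranger is given as version 7.1.0 per the file headers and 7.0.0 per the submitters' processing notes, with mm10. The annotation, the use of strand and how intronic reads were treated are not given in the sources used here. All barcodes are in the deposited counts, 52491901 UMIs for Fit2-WT and 63234140 for Fit2-Mut, and the limits in the report left 5333 and 5979 cells.

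Counts were summed over neuroblasts and divided by the summed total (CPM). Intervals are exact (Poisson for CPM, conditional binomial for ratios, Clopper-Pearson for shares of cells; SciPy 1.17.1), at 95%, and cover counting error only. A group with fewer than 3 UMIs was set to 3 as the denominator of a fold. No test was run, as each group is 1 library. For shares of cells, each cell was thinned to 2000 UMIs by a draw that depends on that cell alone. Doublets were called by Scrublet (Scanpy 1.11.5) in each library and left in, and called 124 and 155 of the kept cells. Free RNA was read from barcodes of 10 to 100 UMIs and estimated at 1.16% and 1.03% of neuroblast UMIs. The ratio intervals were tested on simulated counts. Astrocytes were chosen by a marker rule of the same kind. Gene positions come from GENCODE vM21.

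The cells, gene lists and limits were chosen with earlier results of these data known. Genes named outside the lists were, between libraries, the 10 highest and 10 lowest by the interval bound nearest to 1 (at least 1.5-fold, 50 UMIs, a UMI in 10% of cells of the higher library; ribosomal, mitochondrial, haemoglobin and sex-linked genes and unnamed gene models left out). Against other cells they were the 20 with the largest lower fold of the 2 libraries, with at least 50 UMIs in each library and a UMI in 30% of its neuroblasts. Cd74, H2-Aa and the single cells described for Dcc, Snhg11 and the G2 and M list were picked after their values were seen. Results for some genes that these rules name are not reported here.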

Additional observations from a re-analysis of the deposited data

How the results depend on the processing

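No paired analysis was possible because each group is 1 library, and for the same reason no replicate could be left out. The ratio of neuroblast shares stayed between 1.98 and 2.36 over its alternatives and the ratio of cycling shares between 0.579 and 0.853. The glutamatergic share in Fit2-WT was 0% when no UMI of an exclusion gene was allowed. Genes at least 1.5-fold higher and lower in Fit2-Mut (475 and 301) numbered 121 and 92 after thinning, 1170 and 735 with a minimum of 20 UMIs, and 41 and 22 with a minimum of 200 UMIs, where different numbers of genes were compared. With cells weighted equally 492 were lower. With TMM scaling the counts were 547 and 255. Genes at least 4-fold above and below other cells numbered 755 and 1215. The median log2 ratio of the G2 and M list turned to -0.33 with no UMI of an exclusion gene, to -0.48 after thinning (5 genes compared) and to -0.071 with cells weighted equally, and Ube2c turned to 0.827 with no UMI of an exclusion gene. The cause was not tested. Ctsd turned to 0.819 without Scrublet doublets and to 0.963 without mixed barcodes. Leaving out mixed barcodes, or the 5 highest cells for Dcc and for the G2 and M list, was chosen after the data were seen. With 60 and 153 cells, levels of genes with few UMIs are not precise: of 6334 genes compared, 653 had at least 500 UMIs.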
